A study of Mus musculus with 9 samples.

Results

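The genes described here are 7 that are used as markers of tendon and ligament: Tnmd, Scx, Mkx, Thbs4, Angptl7, Cilp and Cilp2. They were taken by symbol from a table of 22183 genes measured in mouse tibiae, and all 7 were present and passed the filter on low counts. Polyadenylated RNA was sequenced in 9 libraries, 3 from untreated tibiae (naive), 3 from tibiae given titanium particles (Ti) and 3 from tibiae given titanium particles and I-OG (Ti+I-OG). I-OG is an injectable hydrogel of natural polymers that carries irisin, a hormone-like protein of muscle. The particles serve as a model of aseptic loosening, in which an implant loses its hold in the bone though no infection is present, and the hydrogel-treated tibiae were taken after 5 weeks of treatment; for the naive and Ti groups no time of their own is stated in the sources used here. The sources used here do not state the strain, age or sex of the mice. No group among the 9 libraries had the procedure without particles or the hydrogel without irisin, so an effect of the particles and of the procedure cannot be told apart, nor can one of the hydrogel and of irisin. No label says that the 3 tibiae of a group came from separate mice, and the p-values then reflect only how far these samples differ from each other, which may be a technical spread.

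Tendons and ligaments are dense cords of collagen made by tenocytes and related fibroblasts, and they insert into bone through a fibrocartilage. Scleraxis (Scx), a basic helix-loop-helix transcription factor, marks tendon progenitors from early in development, and mohawk (Mkx), a homeobox factor related to the Iroquois family, is needed for collagen fibril growth in tendon. Tenomodulin (Tnmd) is a membrane glycoprotein of mature tenocytes and a known target of scleraxis. The other 4 genes encode secreted proteins: thrombospondin 4 (Thbs4) is a matrix glycoprotein of tendon and muscle, Angptl7 is an angiopoietin-like protein, and Cilp and Cilp2 encode cartilage intermediate layer proteins, which are also found in tendon, ligament and meniscus. None of the 7 is made by tendon alone.

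Total counts per library were 16256081 to 24766502. The tissue label was checked against 11 osteoblast and osteocyte genes, all of which were measured, with summed levels of 981 to 2250 counts scaled to library depth (CPM) in naive, 3070 to 4090 in Ti and 2230 to 3530 in Ti+I-OG. Naive replicate 3 had the lowest of these sums, and Ti+I-OG replicate 3 stood apart by its low cartilage genes. Ti replicate 2 had the highest sum of skeletal muscle genes, 10100 CPM against 1250 to 7410 in the other 8 libraries. Values of the 7 genes without single libraries are given where these decide a result.

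Scleraxis and related factors bind the E-box, a 6-base motif spelled CANNTG that reads the same on both strands. The RefSeq promoter table (build GRCm38.p6) held 5 of the 7 genes; Scx and Mkx are named only. The 250 bases before the start of 3 of them are shown, on the gene's strand from 5′ to 3′ and with each CANNTG in capitals, because they span the range of E-box counts in the set. Tnmd lies at chrX:133850758-133851007 on the plus strand, Angptl7 at chr4:148500463-148500712 on the minus strand and Cilp at chr9:65264930-65265179 on the plus strand.
Tnmd: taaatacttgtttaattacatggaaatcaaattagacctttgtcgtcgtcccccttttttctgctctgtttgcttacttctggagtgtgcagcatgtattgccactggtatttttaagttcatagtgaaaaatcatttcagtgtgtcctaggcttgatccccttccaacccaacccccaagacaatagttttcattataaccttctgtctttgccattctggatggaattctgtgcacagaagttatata
Angptl7: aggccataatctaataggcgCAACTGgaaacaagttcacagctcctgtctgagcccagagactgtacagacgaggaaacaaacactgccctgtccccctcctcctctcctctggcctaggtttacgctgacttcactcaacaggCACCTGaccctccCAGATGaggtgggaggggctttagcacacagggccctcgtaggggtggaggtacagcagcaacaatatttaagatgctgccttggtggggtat
Cilp: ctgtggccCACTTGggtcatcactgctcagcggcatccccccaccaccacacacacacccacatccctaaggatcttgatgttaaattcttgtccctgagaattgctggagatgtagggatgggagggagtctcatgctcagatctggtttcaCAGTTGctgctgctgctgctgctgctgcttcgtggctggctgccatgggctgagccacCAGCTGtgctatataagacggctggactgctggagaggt
The windows of Angptl7 and Cilp each held 3 CANNTG words, those of Thbs4 and Cilp2 held 1 each, and that of Tnmd held 0. In Angptl7 the words began 230, 106 and 93 bases before the start, and in Cilp 242, 97 and 39 bases before it. Of all 32851 windows of this length in the table, 66.2% held at least 1 such word and 12.2% held at least 3. The letters TATAAA were in none of the 5 windows on either strand, and in 12.4% of all windows. The share of G and C was 38.4% in Tnmd, 54.4% in Angptl7, 56.0% in Cilp, 62.4% in Cilp2 and 70.8% in Thbs4, against a median of 52.4%. A match is a string of letters and not a measured site, and its absence says only that the letters are not in this window.

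The first comparison, Ti against naive, asks how tibiae given particles differ from untreated ones. Of the 7 genes 6 rose in Ti tibiae and none fell; over all 14211 genes tested with edgeR's quasi-likelihood test, 4.05% were called higher and 2.39% lower at an adjusted p under 0.05. In all 7 genes each Ti library lay above each naive library, which held for 14.3% of all genes. The median log2 fold change of the 7 was 2.33, beside 0.00688 for all genes tested. Since a bulk sample sums over cells, more cells of a type and more RNA per cell cannot be told apart in any of these values.

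Of the 2 transcription factors, Mkx rose and Scx did not pass the test. Mkx was at 0.759, 0.747 and 0.503 CPM in naive replicates 1 to 3 and at 3.40, 4.78 and 1.32 CPM in the Ti libraries. Ti replicates 1 and 2 were far above the naive samples and replicate 3 was nearer to them, without overlap. Its log2 fold change was 2.24 (SE 0.47, adjusted p = 0.0228), which is a 4.71-fold rise (95% interval 2.33 to 9.55). This call rested on single libraries: the adjusted p was 0.0525 without naive replicate 1, 0.0811 without naive replicate 3, 0.0904 without Ti replicate 1 and 0.105 without Ti replicate 2. For Scx, the levels were 0.570, 0.467 and 0.210 CPM in naive and 0.991, 2.56 and 0.833 CPM in Ti. The Ti libraries again lay above the naive ones, but replicate 2 stood well apart from the other Ti samples. The log2 fold change of Scx was 1.81 (SE 0.60, 95% interval 0.50 to 3.11, adjusted p = 0.0877), and it did not rest evenly on the libraries. It was 1.11 (adjusted p = 0.396) without Ti replicate 2, the library that stood apart, 1.47 (0.275) without naive replicate 3 and 2.08 (0.0488, the only one of the 6 such fits that passed) without Ti replicate 3.

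The depth behind Scx was small, from 5 counts in naive replicate 3 (exact Poisson 95% interval 1.62 to 11.7) to 62 in Ti replicate 2 (47.5 to 79.5). These intervals cover counting error only, and reads copied by PCR are not independent molecules. Scx lies within Bop1 and Angptl7 within Mtor, each on the opposite strand and without shared exons in GENCODE M21, and the library kit does not mark strand. Bop1, a ribosome biogenesis gene, had a log2 fold change of -0.45 (adjusted p = 0.168) in Ti against naive. The kinase gene Mtor had one of -0.33 (adjusted p = 0.259). The part of reads from these host genes in the values of Scx and Angptl7 was not tested. Exons of Mkx overlap those of AC148004.2 on the same strand, and the values of Mkx are uncertain to that extent.

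Tnmd had the smallest p of all 14211 genes. It stood at 0.759, 0.560 and 0.587 CPM in the naive tibiae and at 10.7, 13.4 and 6.52 CPM in the Ti tibiae. The lowest Ti library was still many times the highest naive one. The rise was 15.8-fold (95% interval 9.54 to 26.3, adjusted p = 0.00098), which is 3.99 on the log2 scale with an SE of 0.33. Its base was low, at 20, 12 and 14 counts in naive replicates 1 to 3. In the deposited table this took Tnmd from the 19.0th to 22.4th percentile of detected genes by FPKM in naive libraries to the 47.1th to 64.1th in Ti.

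All 4 genes for secreted proteins rose. Thbs4 was at 3.65, 5.84 and 7.04 CPM in naive and at 41.0, 59.3 and 26.5 CPM in Ti, a 7.69-fold rise (95% interval 4.80 to 12.3, adjusted p = 0.00169). As in Tnmd, replicate 2 was the highest Ti library and replicate 3 the lowest. Angptl7 had 3.30, 4.48 and 3.10 CPM in naive and 18.5, 20.0 and 16.4 CPM in Ti. Its Ti libraries were close together, the highest being 1.22 times the lowest, and it rose 5.04-fold (3.52 to 7.22, adjusted p = 0.00166). Cilp2 was at 0.722, 1.17 and 0.503 CPM in naive and at 4.34, 6.48 and 5.10 CPM in Ti. It rose 6.67-fold (3.63 to 12.3, adjusted p = 0.0059), with every Ti library well clear of the naive ones. Cilp, its relative, had the smallest change: 13.2, 14.4 and 13.5 CPM in naive became 32.3, 38.7 and 28.7 CPM in Ti. The naive values of Cilp were nearly equal and the Ti values all lay well above them. The rise was 2.43-fold (1.67 to 3.52, adjusted p = 0.0167), and it did not pass without naive replicate 3 (adjusted p = 0.0558), Ti replicate 1 (0.0703) or Ti replicate 2 (0.0773).

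**Figure D1:**
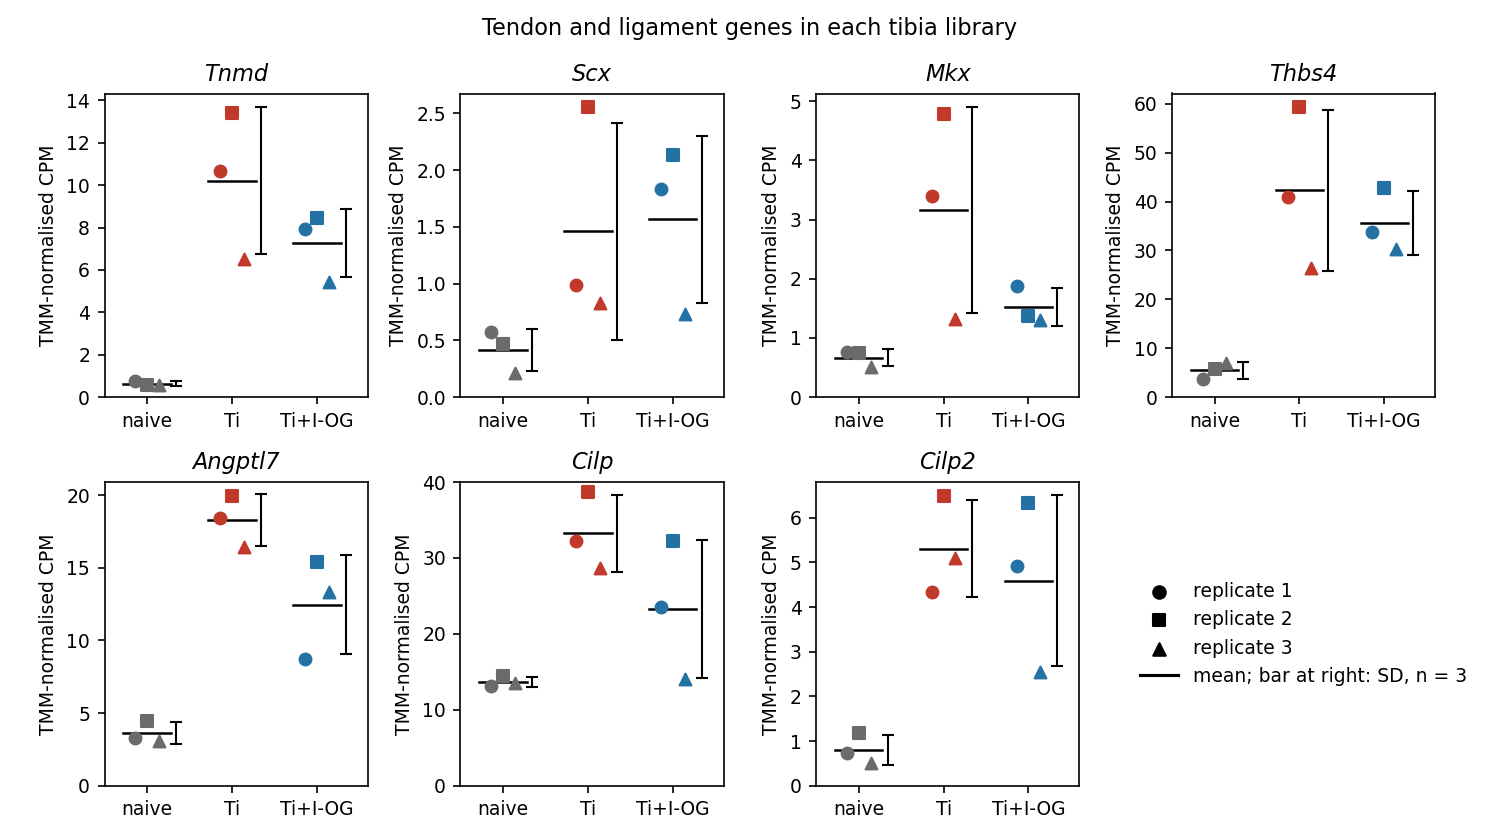
TMM-normalised CPM of the 7 genes on the y axes, by group on the x axes; each point is a library, its shape gives the replicate number, the line is the mean and the bar at the right the SD (n = 3). The Ti libraries of Tnmd lie at 6.52 to 13.4 CPM above naive libraries at 0.560 to 0.759 CPM, and Ti replicate 2 (square) is the highest Ti library in all 7 panels.

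The Ti libraries ranked alike across the genes. Ti replicate 2 was the highest for 7 of 7 and Ti replicate 3 the lowest for 6 of 7, the exception being Cilp2, which was lowest in Ti replicate 1. The spread was widest in the transcription factors, with the highest Ti library at 3.62 times the lowest for Mkx and 3.07 times for Scx. In the Ti+I-OG group replicate 2 was the highest for 6 genes and replicate 3 the lowest for 6. Mkx was highest there in replicate 1, and Angptl7 lowest in replicate 1. In naive, replicates 1 and 2 were each the highest for 3 genes and replicate 3 for 1, and replicate 3 was the lowest for 4, replicate 1 for 2 and replicate 2 for 1.

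Other tissues of the leg were followed through marker lists, since their share of a sample can differ. All 16 skeletal muscle genes were tested and none was at 0 in any library. Their summed level was 1250 to 3670 CPM in naive, 2760 to 10100 in Ti and 4210 to 7410 in Ti+I-OG. In Ti it was 6020, 10100 and 2760 CPM in replicates 1 to 3, the same order as for 6 of the 7 genes. This order was not particular to muscle. It was also that of the sums of adipocyte (686, 972 and 420 CPM) and of osteoblast and osteocyte genes (3680, 4090 and 3070 CPM). Cartilage, Schwann cell and skin sums had it too, and those of endothelium, erythroid and interstitial fibroblast genes did not. Of the muscle genes only Mylpf, a fast muscle myosin light chain, passed with edgeR in Ti against naive (log2 fold change 1.75, adjusted p = 0.0389). All 16 had positive values with a median of 1.24, 12 had an unadjusted p under 0.05, and the groups overlapped for all 16. The sum in Ti replicate 3 was below those of naive replicates 2 and 3, at 3670 and 3160 CPM, and in the other 2 Ti libraries it was above every naive sum. The levels of the 7 genes in Ti replicate 3 were above those in every naive library.

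Cartilage genes were also higher in Ti, at a sum of 1160 to 1230 CPM against 312 to 607 in naive and 322 to 799 in Ti+I-OG. Of the 15 tested, 3 rose in Ti against naive: Col2a1, the main collagen of cartilage (log2 fold change 1.93), the chondrocyte factor Sox9 (1.83) and Col11a2 (1.10). The cartilage list had a median of 1.61 in Ti against naive, and 14 of the 15 values were positive. In 13 every Ti library lay above every naive library, and 12 had an unadjusted p under 0.05 with edgeR. Ti+I-OG replicate 3 had a cartilage sum of 322 CPM, within the naive range. Its mean centred log2 level of cartilage genes was -2.28, below every naive library (-0.99 to -0.06). The mean centred log2 level of the 7 genes in it was 0.10, above the highest naive value of -1.26. It was also the lowest Ti+I-OG library for 6 of the 7 genes. Its centred log2 level of Cilp, -0.607, lay within the naive range of -0.705 to -0.575. Among interstitial fibroblast genes 4 of 10 rose, namely Clec3b (log2 fold change 2.63), Mfap5 (3.01), Fbln2 (1.58) and Dpt (2.93). The median of all 10 was lower, at 0.435, with 8 values positive and the lowest at -0.37. Fibroblast sums were 458 to 535 CPM in naive, 573 to 664 in Ti and 521 to 728 in Ti+I-OG. Adipocyte genes had sums of 155 to 394, 420 to 972 and 443 to 1090 CPM in the same order of groups, with 0 of 8 called by edgeR in Ti against naive, 7 with an unadjusted p under 0.05 and 2 called by DESeq2. Of 11 osteoblast and osteocyte genes 7 rose, among them the osteocyte genes Dmp1 (log2 fold change 1.09), Mepe (1.65) and Sost (1.32). Of 8 Schwann cell and nerve genes edgeR called only Pmp22 (1.05), whereas DESeq2 called 3. Their median was 1.14, with values from -0.37 to 2.46 and 7 of them positive. In 5 genes every Ti library lay above every naive library, and in 1 every Ti library lay below. With edgeR, 3 genes of this list were under 0.05 before adjustment of p. Sox10 had at most 5 counts. No gene was called by edgeR among 7 of endothelium (2 with an unadjusted p under 0.05, 1 called by DESeq2), 8 of erythroid cells (0 and 0) and 3 of skin (1 and 0). The skin markers Krt5, Krt14 and Krt1 had at most 9, 3 and 4 counts in any library, and the sum of that list was 1.77 to 2.97 CPM in naive, 1.47 to 2.27 in Ti and 1.54 to 3 in Ti+I-OG. The part of muscle, cartilage, fibroblasts, fat, bone cells or nerve in the rise of the 7 genes was not tested.

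**Figure D2:**
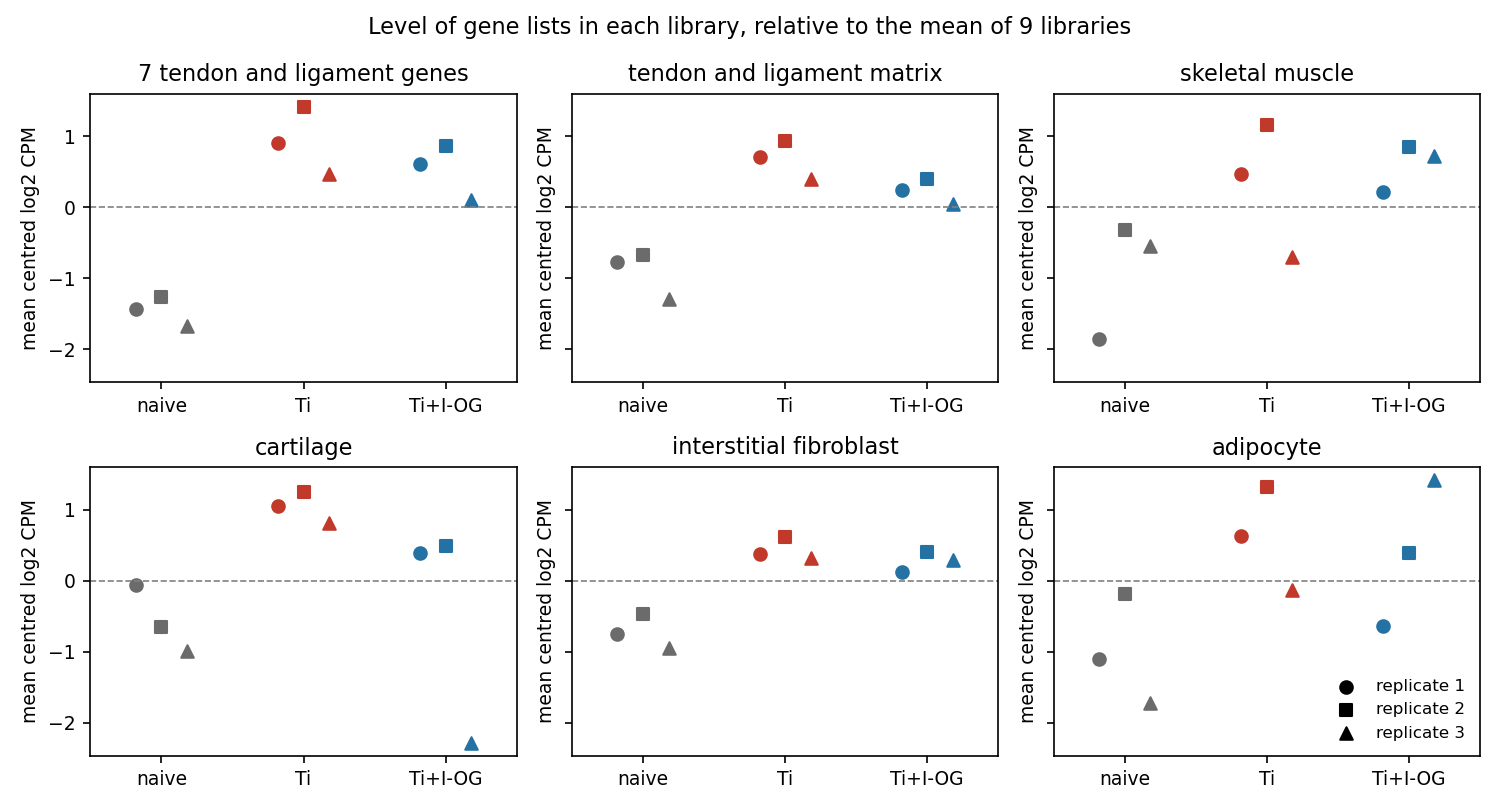
Mean over the genes of a list of log2 CPM, centred on each gene's mean over 9 libraries (y axes), by group (x axes), with a point for each library. For the 7 genes every naive library lies below every other library (-1.68 to -1.26 against 0.10 to 1.42), whereas for skeletal muscle Ti replicate 3 (triangle, -0.70) lies among the naive libraries, and for cartilage Ti+I-OG replicate 3 (-2.28) is the lowest of all.

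The levels of the 7 genes were set beside each other per transcript length, as FPKM (fragments scaled to transcript length and library depth). In naive tibiae Cilp was the highest at 3.51 ± 0.12 FPKM (SD, n = 3 here and for each level that follows). Thbs4 at 1.84 ± 0.60 and Angptl7 at 1.79 ± 0.32 came next with overlapping libraries. Tnmd at 0.500 ± 0.087 and Scx at 0.425 ± 0.186 also overlapped, as did Cilp2 at 0.195 ± 0.078 and Mkx at 0.195 ± 0.038. In Ti tibiae Thbs4 had the highest mean, 13.3 ± 5.2 FPKM, followed by Angptl7 at 8.56 ± 0.82, Cilp at 8.08 ± 1.22 and Tnmd at 7.61 ± 2.58. Neighbours among these 4 overlapped in their libraries. All 4 were above Scx at 1.42 ± 0.93, Cilp2 at 1.24 ± 0.25 and Mkx at 0.876 ± 0.480, which overlapped among themselves. The Ti+I-OG tibiae had the same order, from Thbs4 at 10.3 ± 1.5 FPKM, whose libraries lay above all others, to Mkx at 0.386 ± 0.075, which lay below the libraries of Cilp2 (0.577 to 1.31 FPKM). Between these came Angptl7 at 5.38 ± 1.45, Cilp at 5.16 ± 1.82, Tnmd at 4.97 ± 0.91, Scx at 1.39 ± 0.61 and Cilp2 at 0.977 ± 0.372. The libraries of Angptl7, Cilp and Tnmd overlapped, and so did those of Scx and Cilp2.

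The second comparison, Ti+I-OG against Ti, asks what the irisin hydrogel changed in tibiae given particles. None of the 7 genes passed the edgeR test (adjusted p 0.628 to 0.975), nor with DESeq2 or limma. With edgeR 2 had an unadjusted p under 0.05, Angptl7 and Mkx, at ranks 633 and 781 by p among the 14211 genes. Cilp, with an unadjusted p of 0.0549, had rank 1223, so a p of this size was not rare among all genes. Over all genes 6 of 14211, or 0.0422%, were called in either direction. The median log2 fold change of the 7 was -0.49, beside -0.00313 for all genes tested. Markers of other cells differed between these groups too. The 8 erythroid genes all had positive values (median 0.91, 7 without overlap, 6 with an unadjusted p under 0.05, 0 called by edgeR or DESeq2), with sums of 69800 to 103000 CPM in Ti and 169000 to 183000 CPM in Ti+I-OG. Of 15 cartilage genes 14 had negative values (median -1.20, 6 without overlap, 3 with an unadjusted p under 0.05, 0 called by either tool). Of 11 osteoblast and osteocyte genes 0 had positive values, with a median of -0.396. In that list 6 were without overlap, 5 had an unadjusted p under 0.05 and 0 were called by either tool. The part of these cells in the values of the 7 genes was not tested. In Angptl7 the Ti+I-OG libraries, at 8.73, 15.4 and 13.3 CPM, all lay below the Ti libraries at 16.4 to 20.0 CPM; this order was found in 6.71% of all genes. Its ratio to Ti was 0.681 (95% interval 0.486 to 0.952, unadjusted p = 0.0282, adjusted p = 0.628). Mkx was at 1.88, 1.37 and 1.303 CPM in Ti+I-OG, below Ti replicates 1 and 2 but level with Ti replicate 3. The ratio was 0.481 (0.246 to 0.941, unadjusted p = 0.0351, adjusted p = 0.630).

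The remaining 5 genes overlapped between Ti+I-OG and Ti. Tnmd was at 7.93, 8.45 and 5.44 CPM in Ti+I-OG, with a ratio to Ti of 0.712 (95% interval 0.469 to 1.08). Cilp was at 23.6, 32.2 and 14.1 CPM, with a ratio of 0.699 (0.485 to 1.01). Replicate 3 was the lowest in both. Thbs4 was at 33.7, 42.8 and 30.2 CPM, with a ratio of 0.840 (0.547 to 1.29). For Cilp2 the levels were 4.91, 6.32 and 2.55 CPM and the ratio 0.862 (0.502 to 1.48). Scx, at 1.84, 2.13 and 0.737 CPM, had a ratio of 1.06 (0.461 to 2.44). The sign was not fixed in the last 3: leaving out a single library gave a log2 difference of 0.07 for Thbs4 (without Ti replicate 2) and for Cilp2 (without Ti+I-OG replicate 3), and one between -0.19 and 0.77 for Scx. A p over the threshold does not show that these levels were alike. The intervals reach down to 0.469 of the Ti level in Tnmd, 0.485 in Cilp, 0.547 in Thbs4, 0.502 in Cilp2 and 0.461 in Scx. They reach up to 1.08, 1.01, 1.29, 1.48 and 2.44 in the same order.

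The third comparison set Ti+I-OG against naive, and so shares libraries with each of the other comparisons; the values are given side by side. Of the 7 genes 4 rose, against 3.84% of all genes called higher. Genes of other cells rose in the same comparison: 5 of 8 erythroid genes, 4 of 10 of interstitial fibroblasts, 3 of 8 of adipocytes, 3 of 11 of osteoblasts and osteocytes, 2 of 16 of skeletal muscle and 1 of 8 of Schwann cells and nerve. Their part in the rise of the 7 was not tested. The erythroid genes were Hba-a1, Hba-a2, Hbb-bs, Hbb-bt and Alas2 (the globin genes are near-identical pairs whose separate values are uncertain), with a list median of 1.21 and sums of 29600 to 96300 CPM in naive. In 6 of the 7 every Ti+I-OG library lay above every naive library, which held for 18.7% of all genes, and Cilp was the exception. The median log2 fold change was 1.89, beside 0.0325 for all genes. Tnmd rose 11.3-fold (95% interval 6.79 to 18.7, adjusted p = 0.000808), where Ti against naive gave 15.8-fold. Thbs4 rose 6.46-fold (4.04 to 10.3, adjusted p = 0.00213) and Angptl7 3.43-fold (2.40 to 4.91, adjusted p = 0.00414), beside 7.69-fold and 5.04-fold in Ti. Cilp2 rose 5.75-fold (3.12 to 10.6, adjusted p = 0.0106), beside 6.67-fold; without Ti+I-OG replicate 2 its adjusted p was 0.0597.

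Scx, Mkx and Cilp did not pass in Ti+I-OG against naive. The ratio was 3.71 for Scx (95% interval 1.49 to 9.25, adjusted p = 0.0684), 2.27 for Mkx (1.10 to 4.68, adjusted p = 0.126) and 1.70 for Cilp (1.17 to 2.46, adjusted p = 0.0696). Cilp overlapped because Ti+I-OG replicate 3, at 14.1 CPM, lay below naive replicate 2 at 14.4 CPM. The log2 fold change of Cilp was 0.76 with all libraries, 1.01 (adjusted p = 0.0306) without that Ti+I-OG library, 0.45 (0.288) without Ti+I-OG replicate 2 and 0.73 (0.196) without naive replicate 3. With the replicate number as a block, Scx (log2 fold change 1.86, adjusted p = 0.0172) and Cilp (0.70, adjusted p = 0.020) also passed, so that 6 of the 7 genes rose. The block was used because same-numbered libraries of these groups deviated together, with correlations of 0.105 to 0.255. No label pairs the libraries by number. In all, 3450 genes were called with the block against 1174 without it.

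**Figure D3:**
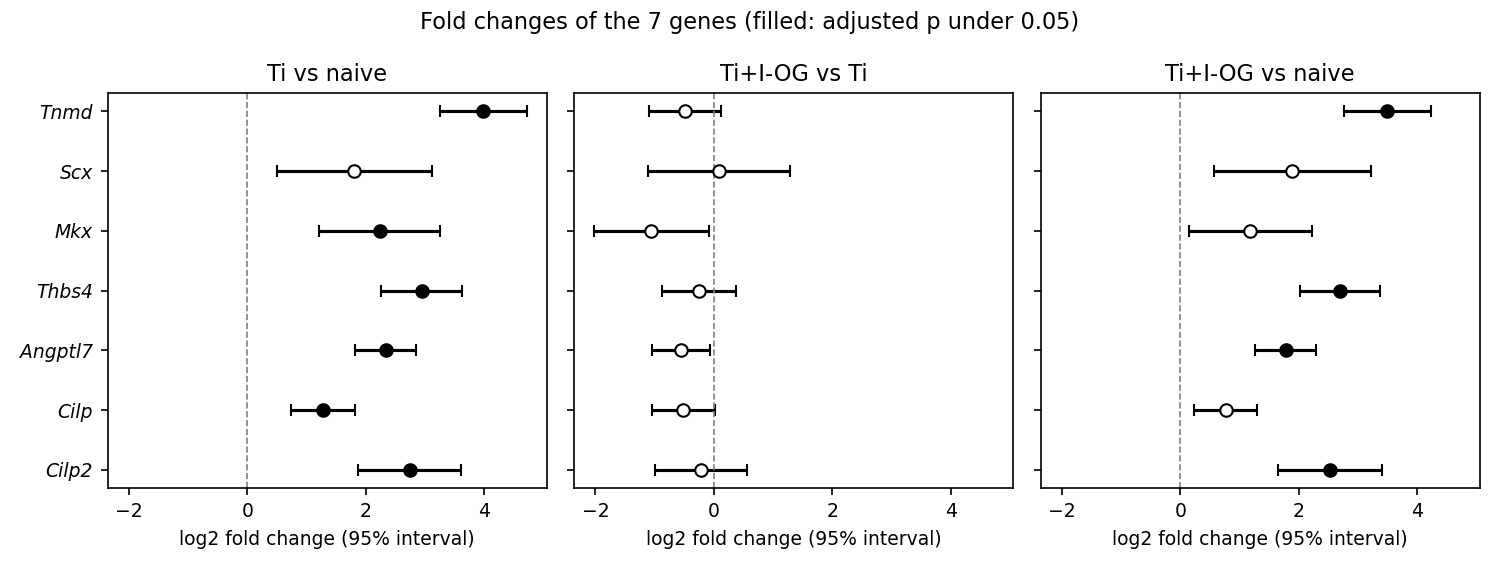
Log2 fold change (x axes) of each of the 7 genes (y axis) with its 95% interval from the edgeR fit of 9 libraries, in a panel for each comparison; filled points passed at an adjusted p under 0.05. In Ti vs naive 6 points are filled, in Ti+I-OG vs Ti none is filled and the values run from -1.06 (Mkx) to 0.09 (Scx), and in Ti+I-OG vs naive 4 are filled.

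The collagens, proteoglycans and fibril-associated proteins of tendon and ligament moved in the same direction as the 7 genes in Ti tibiae. Of 32 such genes, all tested, 26 rose in Ti against naive and none fell, with a median log2 fold change of 1.53. Over all genes 4.05% were called higher. This list, like the others, was chosen with earlier results of these data known. The smallest p-values were those of Aspn (asporin, log2 fold change 3.09, SE 0.33, adjusted p = 0.00169), Fmod (fibromodulin, 2.47, SE 0.29, adjusted p = 0.00214), Prg4 (lubricin, 2.21) and Col3a1 (collagen III, 3.23). All 4 also passed in Ti+I-OG against naive. The matrix list holds genes of bone and skin fibroblasts too, such as Col1a1. Its count fell to 12 without Ti replicate 1 and to 11 without Ti replicate 2. None of the 32 passed in Ti+I-OG against Ti with edgeR or DESeq2, though 10 had an unadjusted p under 0.05, and the median was -0.48. Of these values 3 were positive. In 12 genes every Ti+I-OG library lay below every Ti library, an order found in 6.71% of all genes. Against naive, 15 of 32 rose in Ti+I-OG, with a median of 1.05, beside 3.84% of all genes called higher. The count was 9 without naive replicate 3, 8 without Ti+I-OG replicate 1 and 5 without Ti+I-OG replicate 2.

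A further list held signals and factors that steer tendon cells. Of 24 listed regulators 21 were tested, and 4 rose in Ti against naive, beside 4.05% of all genes called higher. The 4 were the ligands Tgfb2 (log2 fold change 1.66, SE 0.31, adjusted p = 0.0167), Tgfb3 (1.36, SE 0.26, adjusted p = 0.0167) and Bmp4 (1.24, SE 0.29, adjusted p = 0.0314) and the factor Sox9 (1.83, SE 0.41, adjusted p = 0.0268), which with Scx marks cells of the tendon insertion. The median of the list was 0.65. The count of 4 fell to 2 without naive replicate 1 and to 0 without naive replicate 3, Ti replicate 1 or Ti replicate 2, and it was 9 without Ti replicate 3. Six2, Gdf6 and Gdf7 had too few counts to test, and Gdf7 had 0 in every library, where 3 counts would be 0.114 to 0.206 CPM. None passed in Ti+I-OG against Ti with edgeR or DESeq2, and 4 had an unadjusted p under 0.05. Only Bmp4 passed in Ti+I-OG against naive (log2 fold change 1.41, adjusted p = 0.0247), and it did not pass without naive replicate 1 or 3 or without any 1 of the Ti+I-OG libraries.

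The closest relatives of the 7 genes moved in both directions. Of the 12 relatives tested, 6 rose and 1 fell in Ti against naive, beside 4.05% of all genes called higher and 2.39% lower. Among the thrombospondins, the relatives of Thbs4, Thbs2 (log2 fold change 2.03), Comp (2.07, also in the matrix list) and Thbs3 (1.42) rose, and Thbs1 had a value of -0.13 (adjusted p = 0.81). Among the angiopoietin-like genes, the relatives of Angptl7, Angptl1 (2.39) and Angptl2 (1.64) rose. Angptl4, which encodes an inhibitor of lipoprotein lipase, fell by 0.90 on the log2 scale (SE 0.13, adjusted p = 0.00626), from 21.1 ± 1.4 CPM to 11.3 ± 0.4 CPM (SD, n = 3). It was the only relative called in Ti+I-OG against Ti, where it rose by 1.04 (SE 0.13, adjusted p = 0.0213) to 23.2 ± 1.3 CPM. That call was lost in each of the 6 fits with 1 library of these groups left out.

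Irx5, a relative of Mkx in the Iroquois family, rose by 1.16 on the log2 scale in Ti against naive (adjusted p = 0.0334), and Irx3 had a value of 0.83 (adjusted p = 0.139). Tcf15, the relative of Scx, had a value of 1.44 (adjusted p = 0.0646), and Cnmd, the cartilage relative of Tnmd, one of 1.62 (adjusted p = 0.126). Irx1, Irx2, Irx4 and Irx6 had too few counts to test. Without Ti replicate 1, and without Ti replicate 2, 3 relatives rose in place of 6. In Ti+I-OG against naive 5 of 12 rose, among them Thbs2 (1.55, adjusted p = 0.00693) and Tcf15 (1.88, adjusted p = 0.029), beside 3.84% of all genes called higher. Without single libraries the count ran from 1 (without naive replicate 3, Ti+I-OG replicate 1 or Ti+I-OG replicate 2) to 8 (without naive replicate 2). It was 2 without naive replicate 1 and 3 without Ti+I-OG replicate 3.

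**Figure D4:**
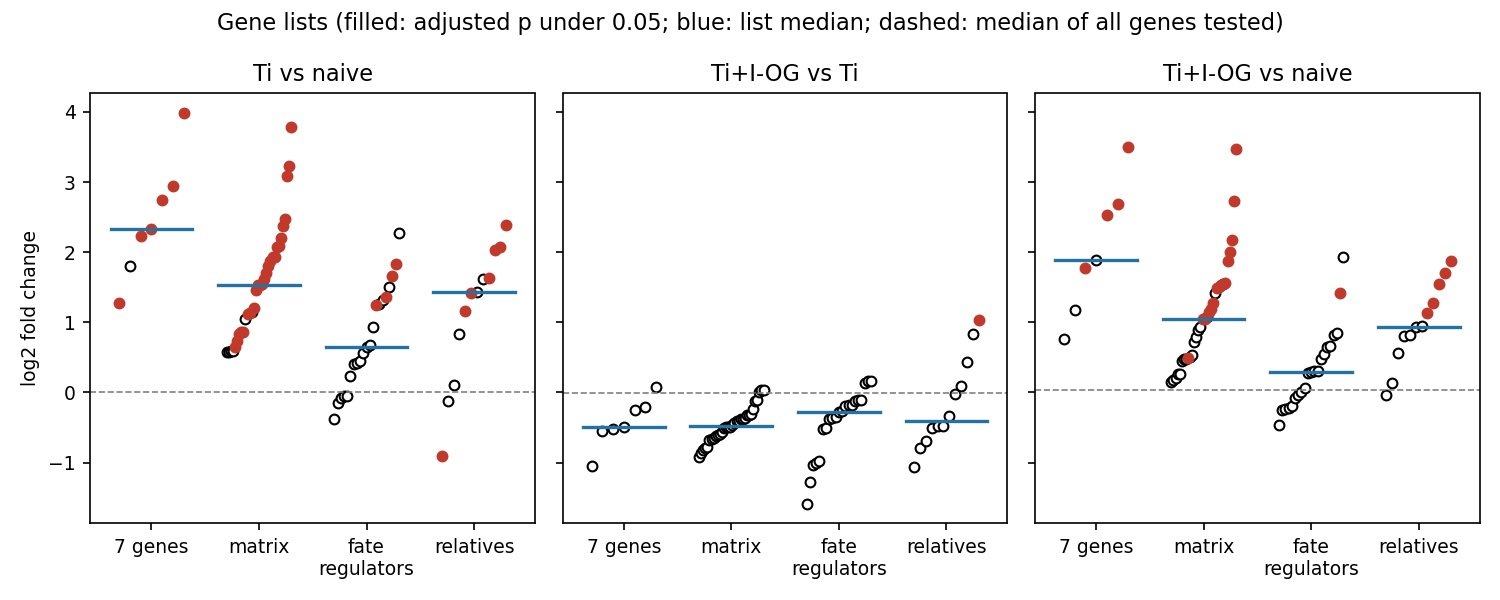
Log2 fold change (y axis) of each gene tested in the set of 7, the tendon and ligament matrix list, the fate regulators and the relatives (x axis), in a panel for each comparison; filled points passed at an adjusted p under 0.05, blue lines are list medians and the dashed line is the median of all genes tested. In Ti vs naive the medians are 2.33, 1.53, 0.65 and 1.43 from left to right, and in Ti+I-OG vs Ti 1 point is filled, Angptl4 among the relatives.

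The genes whose pattern over the 9 libraries was most like the mean of the 7 were found by the root-mean-square difference of centred log2 CPM, among 11987 genes. Fmod was the nearest at 0.177, followed by Cpxm2 (0.188), Abi3bp (0.211), Ttc9 (0.218), Lrrn4cl (0.231), Nbl1 (0.232), Dkk3 (0.232), Mfge8 (0.235), Angptl1 (0.237) and Ccdc3 (0.239). The 7 genes themselves lay farther from their own mean, from 0.329 for Angptl7 to 0.702 for Tnmd. Fmod averaged 14.03 CPM in naive tibiae, 78.1 CPM in Ti tibiae and 56.5 CPM in Ti+I-OG tibiae. Nearest to Tnmd alone were Kera (0.367), which encodes keratocan of cornea and tendon, the chemokine gene Ccl21a (0.394) and Sfrp2 (0.398), which encodes a secreted Wnt modulator. Kera went from 0.356 ± 0.102 CPM (SD, n = 3) in naive tibiae to 4.91 ± 2.48 CPM with particles alone and 3.98 ± 1.2 CPM with particles and hydrogel. These likenesses are descriptions over 9 libraries of 3 groups.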

How the data were processed

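Tibial RNA was selected with oligo(dT) beads and made into libraries with a kit that does not mark strand, per the labels' protocols. For each gene the authors deposited estimated counts and FPKM values, with a column of each per library, per the file headers. The submitters' processing notes list RSEM, StringTie 1.3.1, fastp, edgeR and DESeq2 and give no roles; the aligner, build and annotation are not given in the sources used. Estimated counts, of which 8.49% were not whole, were rounded. Sample titles gave the groups and the replicate numbers.

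edgeR 4.0.16 (R 4.3.3) with TMM scaling and filterByExpr kept 14211 genes and left out 7972. One quasi-likelihood fit of 9 libraries with a mean per group (6 residual degrees of freedom) gave 3 two-sided contrasts, adjusted by Benjamini-Hochberg over all genes tested at a threshold of 0.05. The SE is the absolute log2 fold change over the root of the F statistic, and intervals are 95%. CPM values are TMM-scaled. An exact permutation test of 3 against 3 cannot give a p below 0.1 and was not used. The script was tested on simulated data. No library was a copy of another in its group (chi-square of their counts 12.9 to 132 times its degrees of freedom). Overlapping genes came from GENCODE mouse release M21 by gene identifier, and promoter windows from RefSeq by symbol.

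Same-numbered libraries of Ti+I-OG and naive deviated together from their group means (correlations across genes of 0.18, 0.105 and 0.255), so the blocked values are given for that comparison where they change a call; the labels do not say what a number shares.

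The 7 genes and all lists were chosen with earlier results of these data known. Named genes were the 7, in each list up to 4 genes with the lowest p of Ti against naive, any tested relative, genes overlapping the 7, the 10 nearest to their mean and the 3 nearest to Tnmd, among genes with a mean FPKM of at least 1. Further genes were named after their values were seen: Col1a1, Hbb-bs, Alas2 and the markers with too few counts. A listed gene is not reported here. Alternatives were RLE size factors, DESeq2 1.42.0, no filter, limma 3.58.1 (trend) on log2(FPKM + 0.1) and log2(FPKM + 1), the 2 groups alone, the replicate block, removal of 20 globin and mitochondrial genes, and leaving out each library; the counts of the lists under these were added after seeing the data.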

Additional observations from a re-analysis of the deposited data

How the results depend on the processing

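The 7 genes kept their direction in Ti against naive and in Ti+I-OG against naive under every alternative run. The number that rose in Ti against naive was 6 with RLE size factors, no filter, log2(FPKM + 0.1), 2 groups only and without globin and mitochondrial genes, 5 with log2(FPKM + 1), where Mkx did not pass (0.62, adjusted p = 0.0603), 7 with DESeq2 and 4 to 7 with a library left out. Tnmd, Thbs4, Angptl7 and Cilp2 passed in that comparison under all 14 alternatives. The size of the change varied more: on log2(FPKM + 1) it was 2.47 for Tnmd and 0.903 for Cilp2, beside 3.99 and 2.74 in the main fit. Scx passed with DESeq2 (adjusted p = 0.0377). In Ti+I-OG against naive the number was 4 to 6, 6 being that of DESeq2 and of the replicate block, and 3 to 5 with a library left out. In Ti+I-OG against Ti it was 0 throughout.

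Counts over all genes moved more. From 914 in Ti against naive they went to 1859 with DESeq2, 544 and 556 on log2(FPKM + 0.1) and log2(FPKM + 1), 357 with 2 groups only and 100 to 1999 with a library left out. From 6 in Ti+I-OG against Ti they went to 16 with DESeq2 and 0 to 5 with a library left out. From 1174 in Ti+I-OG against naive they went to 2440 with DESeq2, 1853 and 1787 on the FPKM scales, 770 with 2 groups only and 59 to 2119 with a library left out. The FPKM scales also shifted the median of all genes in Ti+I-OG against naive to -0.164 and -0.12 and the share of calls that were higher from 46.4% to 17.1% and 16.2%. In Ti+I-OG against Ti the sign turned with a library left out for Scx (-0.191 to 0.77), Thbs4 (-0.497 to 0.0749) and Cilp2 (-0.51 to 0.0726); none was called, and the cause was not tested.

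With the replicate block, 2968 genes were called in Ti against naive, 50.6% of them higher against 62.9% without it, and 3450 in Ti+I-OG against naive; 7 and 6 of the 7 genes rose, Scx with an adjusted p of 0.0247 in the first. In Ti against naive the correlations of same-numbered libraries were -0.0276, 0.313 and 0.224, and 4 of 6 libraries correlated best with their own number; in Ti+I-OG against Ti they were 0.0626, 0.185 and 0.207 (6 of 6), and the block changed no call of the 7 genes there. Scx had 5 to 62 counts a library, and its highest Ti library was 3.07 times its lowest. The part of low depth and of this spread in the result for Scx was not tested.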
